A study of Mus musculus with 2 samples.

Results

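Class II molecules of the major histocompatibility complex display peptides from taken-up antigen to CD4+ T cells, and their genes are active mainly in B cells, dendritic cells and activated macrophages. The alpha and beta chains pair in the endoplasmic reticulum with the invariant chain, which is then cut down by lysosomal proteases, and the DM molecule exchanges its last fragment for a peptide while the DO molecule holds DM back. Nearly all of these genes share a promoter module that is read by the coactivator Ciita. The 10 genes described here were chosen by name: the chain genes H2-Aa, H2-Ab1 and H2-Eb1, the DM genes H2-DMa, H2-DMb1 and H2-DMb2, the DO genes H2-Oa and H2-Ob, the invariant chain gene Cd74, and Ciita. Every non-control spot whose gene name equalled one of them was taken, which gave 26 of 43379 spots, 17 of 41174 probes and 10 of 27337 genes.

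The samples came from mouse acute myeloid leukaemias and were leukemia-initiating cells, those that can start the disease again. Both groups expressed MLL-AF9, a fusion of a chromatin regulator that drives this leukaemia, together with the fluorescent protein YFP, and were sorted from the bone marrow of female mice as positive for YFP, Mac-1 and c-Kit. The cells were either Jam3-null, lacking junctional adhesion molecule 3, or WT for Jam3. There was 1 one-colour array per genotype, and each label names 3 mice; how their RNA was combined, their strain and their age are not given in the sources used here. With 1 array per genotype there is no replicate check, no test across samples and no p-value, and precision is limited by having so few arrays.

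The share of spots well above background was 55.0% for Jam3-null cells and 61.8% for WT cells. Neither of the 2 Jam3 probes was well above background on either array. They read 28.1 and 5.40 in Jam3-null cells and 5.09 and 3.23 in WT cells. At this signal they give no difference for the targeted gene, and directions below rest on the labels. Of the 8 sort and leukaemia markers, all were well above background on both arrays. They include Itgam, the Mac-1 chain, at 3703 in Jam3-null cells and 302 in WT cells, and Kit at 1237 in Jam3-null cells and 1244 in WT cells. The granule protease gene Elane, of promyelocytes, had 56622 in Jam3-null cells and 3132 in WT cells, and the progenitor marker Cd34 had 5740 in Jam3-null cells and 65316 in WT cells. Other granule genes, chosen with their values in view, were nearly alike. Mpo had 387885 in Jam3-null cells and 384944 in WT cells, and Ctsg had 282555 and 324560. Hoxa9 had 14313 in Jam3-null cells and 9229 in WT cells, and Meis1 had 1191 and 725. The part of the marker differences in the class II values was not tested. Differences below are log2 Jam3-null minus WT after each array was scaled to its 75th percentile, each with the SD that the scanner software's error model gives. That error covers the measurement of a spot and leaves out animals, leukaemias, amplification and labelling.

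RefSeq promoters (GRCm38.p6, the 250 bases before each start site) were matched by symbol for 7 of the 10 genes: H2-Aa, H2-Eb1, H2-DMa, H2-DMb1, H2-DMb2, H2-Oa and H2-Ob. They were searched on both strands for GATTGG, letters of the Y box bound by NF-Y, and for GNAAC, letters of the X box bound by the RFX complex, with 15 to 35 bases between them, so that the pair cannot overlap. The letters and the gap were chosen with these promoters in view. The pair stood in 5 genes, and the windows are shown because these letters lie in the module that Ciita reads, with the X and Y letters in capitals:

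H2-Oa: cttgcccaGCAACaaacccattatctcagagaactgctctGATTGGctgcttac

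H2-Ob: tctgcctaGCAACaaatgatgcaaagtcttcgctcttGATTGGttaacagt

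H2-DMb1: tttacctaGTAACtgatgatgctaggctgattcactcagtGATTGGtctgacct

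H2-Aa: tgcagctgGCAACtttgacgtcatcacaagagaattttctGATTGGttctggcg

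H2-Eb1: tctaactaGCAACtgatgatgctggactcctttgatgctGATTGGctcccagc

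These windows lie at chr17:34092295-34092348 (H2-Oa, plus strand), chr17:34238810-34238860 (H2-Ob, plus strand), chr17:34153089-34153142 (H2-DMb1, plus strand), chr17:34287859-34287912 (H2-Aa, minus strand) and chr17:34305768-34305820 (H2-Eb1, plus strand). Between the X and the Y letters lay 27 bases in H2-Oa, H2-DMb1 and H2-Aa, 26 in H2-Eb1 and 24 in H2-Ob. Of 32851 RefSeq promoters 1.05% held the pair on either strand, 14.6% held the Y letters and 79.6% held the X letters. The H2-DMb2 promoter and 1 of the 2 H2-DMa promoters held the Y letters without X letters at that distance. No match says only that these letters are not in this window. The 5 genes with the pair include H2-Oa and H2-Aa, lower in Jam3-null cells, H2-Ob, seen in WT cells only, H2-DMb1, near 0, and H2-Eb1, whose difference equals its error.

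Of the class II genes measured on both arrays, 4 were lower and 3 higher in Jam3-null cells after scaling. The largest differences among them were in H2-Oa, 3.79-fold lower, and H2-Ab1, 2.75-fold lower, and H2-Ob was seen in WT cells only, at least 3.996-fold lower in Jam3-null cells. H2-DMa and H2-Aa were 1.93-fold and 1.90-fold lower, H2-DMb1 was near 0, and Cd74 and H2-Eb1 were 1.43-fold and 1.28-fold higher. In sorted bulk cells, fewer cells that express a gene and less RNA per cell cannot be told apart.

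Of the 10 genes, 7 were well above background on both arrays, 3 in WT cells only and 0 in Jam3-null cells only. Over all 27337 genes, 14371 were so on both arrays, 2448 in WT cells only and 501 in Jam3-null cells only. Among the 7, 2 were 2-fold or more below WT and 0 as far above it; over all 14371 genes compared, 8.59% were as far below and 10.3% as far above. The median of the 7 was -0.93, against -0.07 over all genes compared, and 4 of the 7 lay below 0, as did 55.2% of all genes. This median is the value of H2-Aa, a dim gene with 28.1 in Jam3-null cells and 57.1 in WT cells (error-model SD 0.36). After normexp background correction with an offset of 50 the median was -0.29. At 1.5-fold 4 of the 7 were lower, with 20.3% of all genes, and 0 higher, with 18.4%; at 3-fold 1 was lower, with 2.93%, and 0 higher, with 4.94%. Being seen on both arrays was needed for a difference, so the count leaves out the 3 genes not well above background in Jam3-null cells. Of these, Ciita read 18.1 in Jam3-null cells and 17.9 in WT cells.

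**Figure D1:**
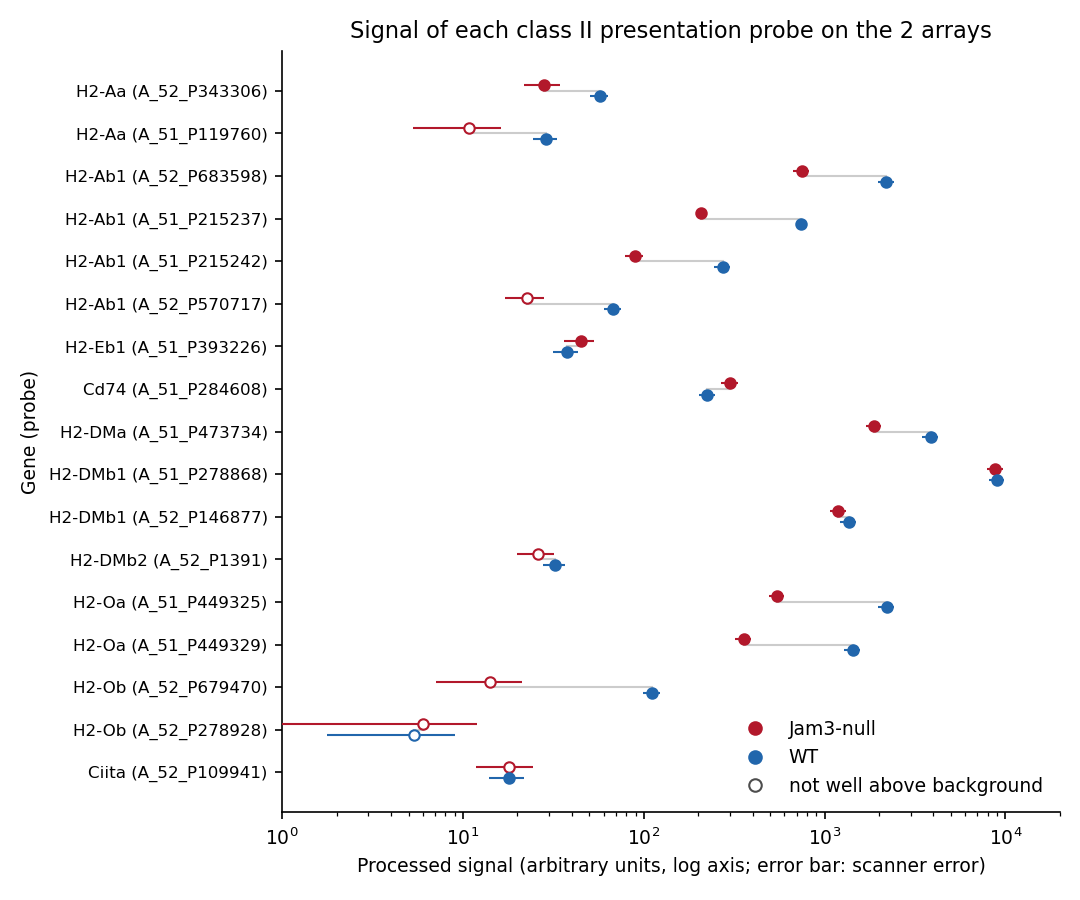
Processed signal of the 17 probes of the 10 genes (log axis, arbitrary units) in Jam3-null cells (red) and WT cells (blue); bars are the scanner software's error of the signal, cut at the axis limit, and open points were not well above background. The 4 H2-Ab1 and 2 H2-Oa probes lie further left in Jam3-null cells, while both H2-DMb1 probes nearly coincide; levels of different probes cannot be compared.

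H2-Ab1, the beta chain of the A molecule, was read by 4 probes. The probe taken for the gene, at chr17:34406059-34406118 (mm9, the build of the array files, as for every probe below; exon annotation on that build was not used here), had a signal of 746 in Jam3-null cells and 2193 in WT cells, a difference of -1.46 ± 0.20 (error-model SD). Of the genes compared, 3.69% had a lower difference. The probe at chr17:34401723-34401782 had 89.2 in Jam3-null cells and 273 in WT cells, a difference of -1.52 ± 0.22. Another probe, which the array file leaves unmapped, was above background in WT cells only, with 22.6 in Jam3-null cells and 67.8 in WT cells, and so at least 2.45-fold lower. All 4 probes of H2-Ab1 thus pointed the same way.

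The remaining H2-Ab1 probe, at chr17:34404388-34404447, was printed in 10 spots, which gives the only repeat measurement among the members. After 1 spot that the scanner software marked as an outlier was left out, the 9 spots ran from 196 to 217 in Jam3-null cells (median 206) and from 718 to 773 in WT cells (median 734). The ranges did not overlap. The means were 207 ± 7.08 in Jam3-null cells and 739 ± 20.6 in WT cells (SD over 9 spots), and the log2 difference was -1.74 ± 0.05 (SD over 9 spots), from -1.84 to -1.69. That spot had 187 in Jam3-null cells and 732 in WT cells. Spots of an array share its RNA, amplification and hybridization, so this spread is not that of replicates.

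**Figure D2:**
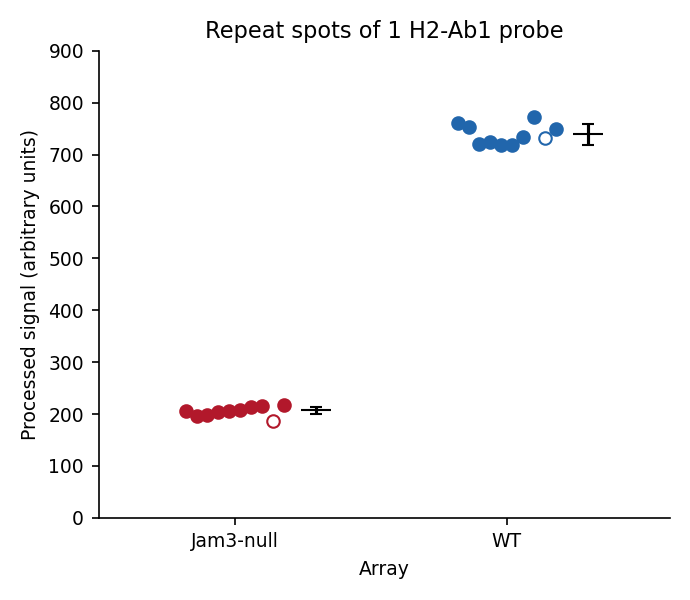
Processed signal (arbitrary units) of the 10 spots of 1 H2-Ab1 probe in Jam3-null cells (red, left) and WT cells (blue, right); the open point marks the spot left out, and the bar beside each array is the mean ± SD of the other 9. The 9 spots lie between 196 and 217 in Jam3-null cells and between 718 and 773 in WT cells.

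H2-Aa, the alpha chain that pairs with the product of H2-Ab1, gave dim signals. Its probe at chr17:34421285-34421344 had 28.1 in Jam3-null cells and 57.1 in WT cells, a difference of -0.93 ± 0.36. After normexp background correction with an offset of 50 the difference was -0.29, and with an offset of 1 it was -0.62. The second probe, at chr17:34420627-34420686, had 10.73 in Jam3-null cells, not well above background, and 28.7 in WT cells, at least 1.04-fold lower. H2-Aa minus H2-Ab1 was 0.53 ± 0.42, little more than the error-model SD.

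H2-Eb1, the beta chain of the E molecule, was also dim, with 44.8 in Jam3-null cells and 37.4 in WT cells at its probe spanning chr17:34452050-34452511. The difference of 0.36 ± 0.36 equalled its error-model SD. Its partner chain gene H2-Ea, listed in RefSeq as a transcribed pseudogene in the reference strain, was undetected, meaning not well above background, on both arrays (7.48 in Jam3-null cells and 4.85 in WT cells). The further beta chain gene H2-Eb2 reached 7.82 in Jam3-null cells and 21.1 in WT cells at its brighter probe, where it was well above background in WT cells only, and the floor allows no fold. Neither of these further genes belongs to the 10.

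Cd74, the invariant chain that guards the groove of new class II molecules, lay on the other side of 0 from H2-Ab1. Its probe on chromosome 18 had 300 in Jam3-null cells and 224 in WT cells, a difference of 0.52 ± 0.21, and 79.4% of the genes compared had a lower difference. The difference of Cd74 minus that of H2-Ab1 was 1.98 ± 0.29 (error-model SD). Its single probe gives no second reading within the array.

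The DM genes differed between chains. H2-DMa, the alpha chain of the peptide exchanger, had 1875 in Jam3-null cells and 3864 in WT cells at chr17:34274300-34274863, a difference of -0.95 ± 0.20. H2-DMb1, a beta chain gene, had 8776 in Jam3-null cells and 8973 in WT cells at chr17:34297109-34297168, a difference of 0.06 ± 0.20. Its second probe, at chr17:34294265-34294324, had 1188 in Jam3-null cells and 1357 in WT cells, a difference of -0.10 ± 0.20, so both readings lay within their error of 0. H2-DMa minus H2-DMb1 was -1.01 ± 0.29. The sign of H2-DMb1 turned with scaling on the spike-in probes (-0.02) and with the mean of its probes.

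H2-DMb2, the neighbouring copy of the beta chain gene, had 25.9 in Jam3-null cells, not well above background, and 32.2 in WT cells at chr17:34284764-34284823. By these readings it was 1.16-fold lower after scaling, which is not a bound. That difference of -0.22 on the log2 scale is smaller than the error-model SD of 0.39, and after normexp correction with an offset of 50 no fold could be given. H2-DMb1 and H2-DMb2 are closely related copies: their promoters shared 83.7% of 209 aligned bases, with 82 gap bases left out. How far a probe of either gene also binds the other transcript was not tested.

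Of the 7 class II members measured on both arrays, the DO gene H2-Oa had the largest difference. H2-Oa, the alpha chain of the DM inhibitor, had 545 in Jam3-null cells and 2205 in WT cells at chr17:34232033-34232092, a difference of -1.92 ± 0.20, and 1.79% of the genes compared had a lower one. Its second probe, at chr17:34231964-34232024, had 357 in Jam3-null cells and 1428 in WT cells, a difference of -1.90 ± 0.21. Both probes therefore gave nearly the same value. Between these alpha chains, H2-Oa minus H2-DMa was -0.97 ± 0.29.

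H2-Ob, the beta chain of DO, was read by 2 probes that did not give the same picture. The probe spanning chr17:34380833-34381064 had 14.1 in Jam3-null cells, not well above background, and 110 in WT cells, at least 3.996-fold lower. That bound was 1.74-fold after normexp correction with an offset of 50 and 2.75-fold with an offset of 1. The other probe, at chr17:34391572-34391631, was undetected on both arrays, with 5.99 in Jam3-null cells and 5.37 in WT cells, and gives no fold.

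Ciita, the coactivator that switches class II genes on, was at the limit of detection. Its probe at chr16:10526303-10526362 had 18.1 ± 6.31 in Jam3-null cells, not well above background, and 17.9 ± 3.99 in WT cells, well above it (error of the signal). A difference in Ciita was not detectable at this signal, and no fold is given.

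**Figure D3:**
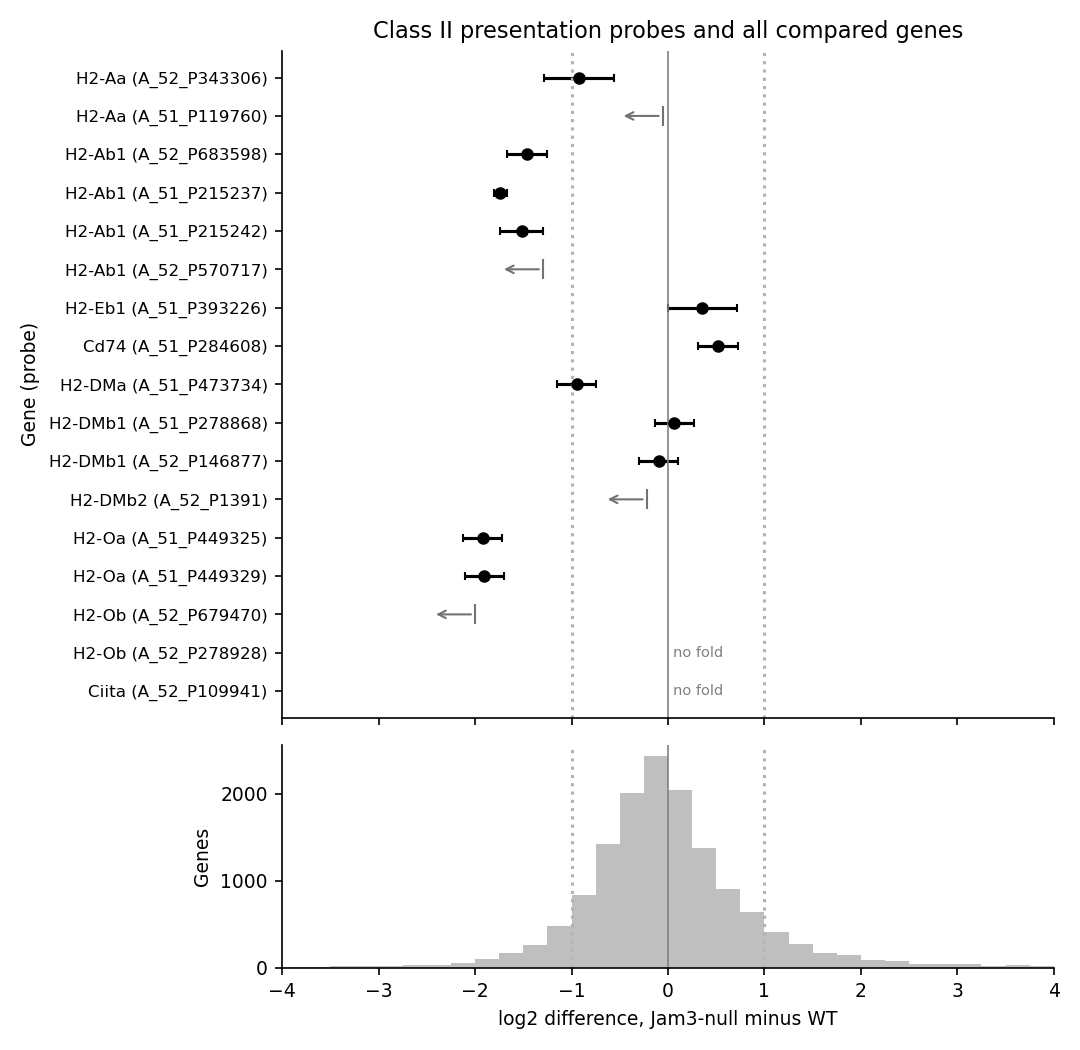
Upper panel: log2 difference, Jam3-null minus WT, of each probe with its error-model SD. Arrows start at the bound of a probe seen in WT cells only (for H2-DMb2, at its measured difference) and point to lower values. Dotted lines mark 2-fold. Lower panel: the same difference over the 14371 genes compared, drawn out to 4 on each side. H2-Ab1 and H2-Oa lie beyond the 2-fold line on the low side, H2-DMb1 around 0, and Cd74 and H2-Eb1 on the high side.

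The class II genes of chromosome 17 stand among genes of other function, and these were set beside them. Between the probes of H2-Oa and H2-Eb1 lay 5 other genes, all measured on both arrays, of which 3 were 2-fold or more below WT and 0 as far above it (median -1.12). Tap1, a subunit of the peptide transporter that feeds class I molecules, was at -2.21 ± 0.21, and the immunoproteasome genes Psmb8 and Psmb9 were at -1.30 ± 0.20 and -1.12 ± 0.20. The other genes, chosen with their values in view, were Tap2 at -0.87 and Brd2, a chromatin reader, at 0.38. With the 6 measured class II members of this stretch, 5 of 11 genes were at least 2-fold lower and 8 of 11 below 0. Over all 14371 genes compared, 8.59% were at least 2-fold lower, 10.3% at least 2-fold higher and 55.2% below 0. The 2-fold counts of the lists below, after the same scaling, are to be read beside these shares. From Psmb9 to H2-Aa every gene in the order was lower or, for H2-Ob, seen in WT cells only. The ends of this run were chosen with the values in view, so it is a description only. Outside it Brd2, H2-DMb1 and H2-Eb1 lay near or above 0, while H2-Oa (-1.92) and H2-DMa (-0.95) were also lower.

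**Figure D4:**
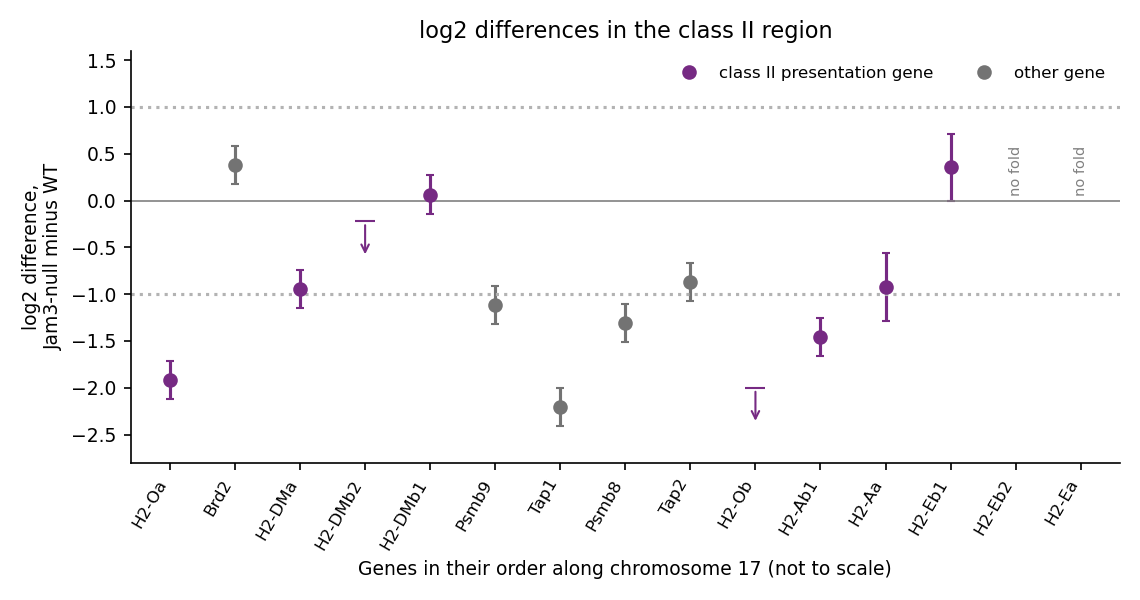
log2 difference, Jam3-null minus WT, of class II presentation genes (purple) and other genes (grey) in their order along chromosome 17, not to scale. Bars are error-model SDs, and dotted lines mark 2-fold. Arrows start at the bounds of genes seen in WT cells only (for H2-DMb2, at its measured difference). H2-Oa (-1.92), Tap1 (-2.21) and H2-Ab1 (-1.46) are low, and Brd2 (0.38), H2-DMb1 (0.06) and H2-Eb1 (0.36) lie near or above 0.

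Genes that process antigen or act on class II molecules lay on both sides of 0. Of 12 such genes 11 were measured on both arrays, and 3 lay 2-fold or more above WT and 2 as far below it (median 0.73). Marchf1, a ubiquitin ligase that sends surface class II to degradation, had 1600 in Jam3-null cells and 192 in WT cells, 8.91-fold higher (3.15 ± 0.21). The lower genes were Ifi30, the lysosomal thiol reductase, at -1.40 ± 0.20, and the cathepsin gene Ctsz at -1.28 ± 0.20. The other higher genes, chosen with their values in view, were Lgmn, which encodes the endoprotease legumain, at 1.17 (0.99 after normexp correction with an offset of 50), and Ctss, the protease that trims the invariant chain, at 1.13.

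Factors of the class II promoter complex and regulators of Ciita were mostly within 2-fold. Of 15 genes 13 were measured on both arrays, and 1 lay 2-fold or more above WT and 1 as far below it (median 0.43). Irf8, a transcription factor of dendritic and monocytic progenitors, had 4494 in Jam3-null cells and 12151 in WT cells, a difference of -1.34 ± 0.20, while the factor gene Spi1 was at 1.08 ± 0.20. Spi1 was within 2-fold after normexp correction with an offset of 50 (0.99) and was the only higher gene. The RFX subunit gene Rfxank was at 0.94, and the others, chosen with their values in view, were Rfxap at 0.65 and Rfx5 at -0.72. The NF-Y genes Nfya, Nfyb and Nfyc, also chosen with their values in view, were at 0.46, 0.09 and -0.32.

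Interferon-gamma induces Ciita in many cells, and the genes of its receptor pathway were read beside it. Of 12 genes 10 were measured on both arrays, and 2 lay 2-fold or more above WT and 1 as far below it (median 0.67). The feedback inhibitor Socs1 was at 1.53 ± 0.20 and the chemokine gene Cxcl10 at 2.35 ± 0.30 (1.15 after normexp correction with an offset of 50), whereas the guanylate-binding protein gene Gbp2 was at -1.90 ± 0.24 (-1.26). With the mean of a gene's probes 5 of these genes were at least 2-fold higher. Ifng itself, chosen with its value in view, had 38.7 in Jam3-null cells and 3.30, not well above background, in WT cells, at least 2.68-fold higher (1.57-fold after that correction).

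Costimulatory molecules, which act on T cells beside class II, were mostly undetected. Of 8 genes 5 were undetected on both arrays. Of the 3 measured, Cd80 was at 1.35 ± 0.39 (0.58 after normexp correction with an offset of 50), Icosl at 0.96 ± 0.20 and Cd274 at 0.11 ± 0.21. Among them 1 lay 2-fold or more above WT and 0 as far below it.

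Markers of other cells that use class II were set beside the members. The cells were gated on YFP, Mac-1 and c-Kit, and how many other cells passed that gate was not tested. Of 17 dendritic cell markers 9 were measured on both arrays, and 6 of these were 2-fold or more below WT and 0 as far above it (median -1.22). The summed signal of the 17 was 8881 in Jam3-null cells and 34054 in WT cells. Most of that sum was Tcf4, with 2067 in Jam3-null cells and 14594 in WT cells, and Irf8, with 4494 and 12151. The sum adds probes whose levels cannot be compared. Flt3, a growth factor receptor of progenitors and dendritic cells, was at -3.51 ± 0.21, the plasmacytoid regulator Tcf4 at -2.72 ± 0.20 and the lectin gene Clec10a at -1.75 ± 0.21. The other lower genes, chosen with their values in view, were Irf8, Ly6d at -1.22 and the integrin gene Itgax at -1.19. After normexp correction with an offset of 50 the median was -0.65, Ly6d was at -0.52 and Itgax at -0.65. A further 2 markers, Ccr9 and Spib, were above background in WT cells only, as were 2448 of all 27337 genes. The defining markers Clec9a, Batf3, Irf4, Ccr7, Cd209a and Siglech were undetected on both arrays. Xcr1 and Zbtb46, also defining markers and chosen with their values in view, were measured on both, at 0.53 ± 0.22 and -0.36 ± 0.32. The part of dendritic cells in the class II differences was not tested.

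Of 15 B cell markers, 3 were measured on both arrays, 6 were seen in WT cells only, and 6 were undetected on both. Over all 27337 genes, 2448 were seen in WT cells only and 10017 were undetected on both. The summed signal was 8045 in Jam3-null cells and 13756 in WT cells, of which Cd79b alone gave 7761 in Jam3-null cells and 11223 in WT cells. Vpreb1, part of the surrogate light chain of precursor B cells, had 115 in Jam3-null cells and 2069 in WT cells, a difference of -4.08 ± 0.22 (-3.47 after normexp correction with an offset of 50). Cd79b, a chain of the B cell receptor complex, was at -0.44 ± 0.20. The genes seen in WT cells only were chosen with their values in view. They were at least 4.54-fold lower for Cd72, 1.80-fold for Fcmr, 1.34-fold for Ms4a1, 1.22-fold for Ebf1 and 1.09-fold for Igll1. Vpreb2 was 3.39-fold lower by its scaled readings, which is not a bound. After normexp correction with an offset of 50 the folds of Cd72 and Vpreb2 were 2.14-fold and 1.63-fold. The defining markers Cd79a, Pax5, Cd22, Cr2, Blk and Rag1 were undetected on both arrays. The part of B-lineage cells in the class II differences was not tested.

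Macrophage markers were more often above WT than below it. Of 12 markers 8 were measured on both arrays, and 4 lay 2-fold or more above WT and 1 as far below it (median 1.30). The summed signal of the 12 was 11758 in Jam3-null cells and 6014 in WT cells. In Jam3-null cells its largest parts were Adgre1, with 4373 against 1146 in WT cells, and Vcam1, with 3142 against 127. Cd68 went the other way. This sum too adds probes whose levels cannot be compared. Vcam1 was at 4.73 ± 0.21, Adgre1, the F4/80 antigen, at 2.03 ± 0.20 and Csf1r at 1.88 ± 0.20. The other higher gene, C1qc, was at 1.61 and the lower gene, Cd163, at -1.47, both chosen with their values in view; after normexp correction with an offset of 50 they were at 0.74 and -0.65, and the median was 0.58 with 3 genes above and 0 below by 2-fold. Cd68, with 1975 in Jam3-null cells and 3903 in WT cells, was at -0.89 ± 0.20 (-0.87 after that correction). C1qa was at 0.99 ± 0.42 and C1qb at 0.45 ± 0.22 (0.41 and 0.33 after it). These genes were also chosen with their values in view. Siglec1, Mertk, Mrc1 and Timd4 were undetected on both arrays. The part of macrophages in the class II differences was not tested.

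T and NK cell markers did not share a direction. Of 12 markers 6 were measured on both arrays, and 1 lay 2-fold or more above WT and 1 as far below it (median -0.21), and the summed signal was 15772 in Jam3-null cells and 5080 in WT cells. Most of that sum was Nkg7, a granule protein of killer cells, with 15160 in Jam3-null cells and 4526 in WT cells. Nkg7 was at 1.84 ± 0.20, Lck at -1.03 ± 0.25 and Cd5 at -0.41 ± 0.21. Lck was within 2-fold after normexp correction with an offset of 50 (-0.52). A further 3, chosen with their values in view, were seen in Jam3-null cells only, as were 501 of all 27337 genes. They were at least 4.93-fold higher for Cd3d and 5.86-fold for Cd8b1 (1.94-fold and 2.44-fold after that correction). Klrb1c was 3.68-fold higher by its scaled readings, which is not a bound (1.67-fold after that correction). The other 3 were undetected on both arrays, and with no filter on dim probes the median of the 12 was 1.33, with 6 genes above and 1 below by 2-fold. The part of T and NK cells in the class II differences was not tested.

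**Figure D5:**
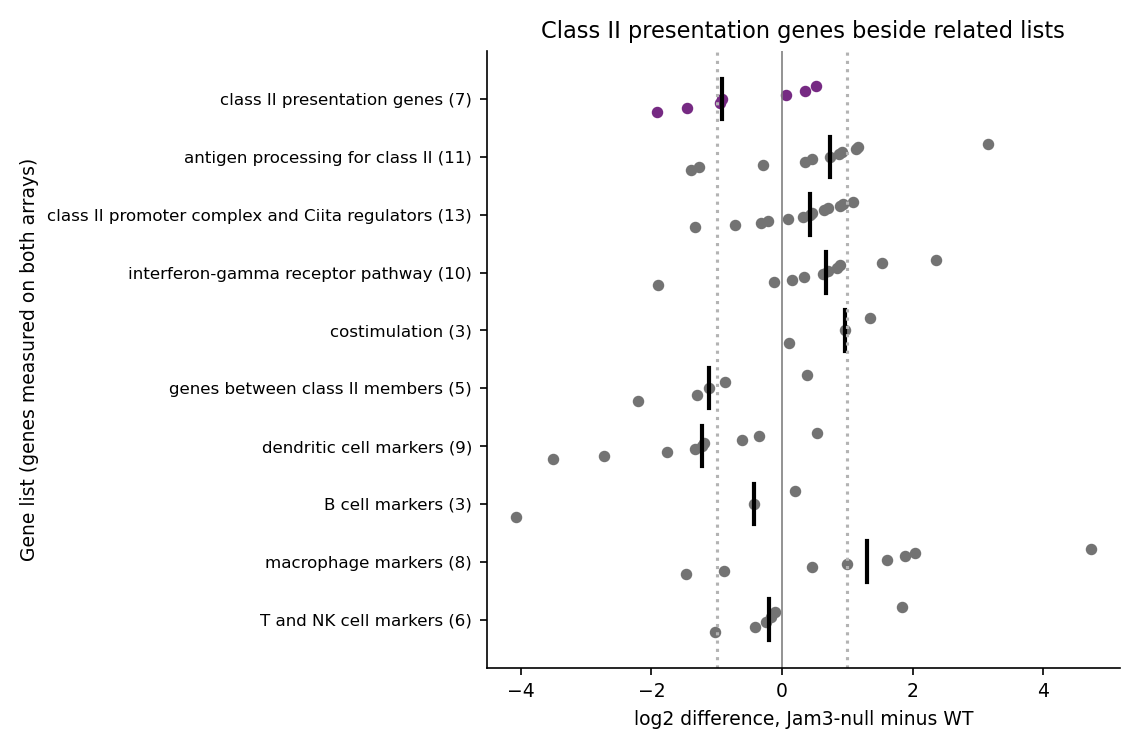
log2 difference, Jam3-null minus WT, of each gene measured on both arrays, for the class II presentation genes (purple) and the related lists (grey); the number of genes stands in brackets, black bars are medians and dotted lines mark 2-fold. The class II genes (median -0.93), the genes between them (-1.12) and dendritic cell markers (-1.22) lie to the left, and antigen processing genes (0.73) and macrophage markers (1.30) to the right.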

How the data were processed

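Total RNA was amplified with a low-input kit and labelled with Cy3, per the labels' protocols. The deposited processed signal intensity is on a linear scale, background-subtracted and detrended within each array by the Agilent software Feature Extraction (the file headers give version 10.7.3.1), with a surrogate value for dim spots. Intensities were not normalized between arrays. The deposited value table holds log2 values (r over probes 0.999 with the log2 intensities); its making by the authors is not described in the labels, so it served as an alternative only.

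The log2 intensity minus each array's 75th percentile (668 for Jam3-null, 714 for WT) was averaged per probe, leaving out spots flagged on either array. A gene took its probe with the highest mean signal among those well above background on both arrays. For a gene above background on 1 array, the fold is a bound, taken from the bright value and the larger of the dim array's lowest signal well above background and the probe's own value there. That lowest signal is not a detection limit for every probe, so the bounds are approximate. Where the probe's own value was the larger, as for H2-DMb2, Vpreb2 and Klrb1c, the fold is that of its scaled readings and not a bound. Both arrays were on the same slide and in the same scan, per the file headers. Probe names were matched to RefSeq by accession (27647) or older symbol (470); 13040 kept the file's name. The members by name, the named list genes (the 3 largest differences of each list) and the lists were chosen with earlier results of these data known. The value of 1 listed marker is not reported here. The gene-level step was tested on simulated data. Tools were limma 3.58.1 in R 4.3.3, and pandas 2.3.3, numpy 2.4.6 and matplotlib 3.10.9 in Python 3.11.15.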

Additional observations from a re-analysis of the deposited data

How the results depend on the processing

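The median difference of the measured class II genes was negative under every alternative run. It was -0.29 and -0.62 after normexp correction with offsets of 50 and 1, -0.71 with cyclic loess, -0.57 with no filter on dim probes (10 genes) and -1.20 with the stricter filter (4 genes). Cyclic loess raised the median of all genes by 0.13. The count at least 2-fold lower was 4 with spike-in scaling (10.4% of all genes), where H2-Aa and H2-DMa were at -1.01 and -1.03. That scaling moved every difference by the same -0.085. The count was 4 at 1.5-fold (20.3% of all genes) and 1 at 3-fold (2.93%). The median of 7 genes is the value of 1 gene. In the main run, with both normexp offsets and with cyclic loess, that gene was the dim H2-Aa. Those shifts of the median are thus shifts of the H2-Aa value. Why H2-Aa and other values moved was not tested, except that fewer or more genes enter with another filter or fold. H2-Ab1 ranged from -1.57 to -1.37 and H2-Oa from -2.01 to -1.83, both past 2-fold in all 11 alternatives. Of these, keeping flagged spots, no filter and the stricter filter left both values unchanged. H2-DMa ranged from -1.03 to -0.82, Cd74 from 0.43 to 0.57 and H2-Eb1 from 0.21 to 0.57. Over single genes, probes and lists, 467 further values stayed within their error or 1.5 times their count, 65 moved and 0 values past 2-fold changed sign. Sign changes of smaller values, such as the T and NK marker median, were not counted. Many of the values that stayed could not move. A gene with 1 probe was entered as gene and as probe, and no filter or the mean of its probes returned the same value. Signal over background limits H2-Aa, H2-Eb1, H2-DMb2, H2-Ob and Ciita. No paired analysis was possible because each genotype has 1 array and the result comes from no test.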
